A study of Mus musculus with 12 samples.

Results

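The nuclear genes for subunits of the mitochondrial respiratory chain and ATP synthase were examined in livers of Ire1α null and control mice that had received either tunicamycin, a drug that stresses the endoplasmic reticulum (ER), or vehicle. The members were the probe sets of an Affymetrix array that carry a single gene symbol beginning with Ndufa, Ndufb, Ndufc, Ndufs, Ndufv, Sdha to Sdhd, Uqcr, Cox4 to Cox8 or Atp5, without the Ndufaf assembly factors. This gave 169 of 45101 probe sets and 82 genes of 18193, each gene read from whichever of its probe sets was brightest on average across the 12 arrays. After removal of the dimmest 30% of probe sets, 81 of the 82 genes were tested among 14568 genes, and Cox7b2, a testis form of a cytochrome oxidase subunit, was not. By complex, 34 tested genes belonged to complex I, 4 to complex II, 8 to complex III, 18 to complex IV and 17 to complex V. Subunit genes without a probe set of a single symbol, such as Ndufs6, Ndufa11 and Cox7b, were not analysed here.

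There were 4 groups of 3 livers, labelled biological replicates, from 3-month-old C57Bl/6J mice: Ire1α null with tunicamycin (titled Fe-CRE+Tm), control with tunicamycin (Fe+CRE+Tm), null with vehicle (Fe-CRE+) and control with vehicle (Fe+CRE+). Both genotypes are thus labelled CRE+, and neither the promoter that drives Cre nor the deleted stretch of Ern1, the Ire1α gene, is given in the sources used here. Tunicamycin, an inhibitor of N-linked glycosylation under which proteins misfold in the ER, was injected into the peritoneum at 2 µg per g of body weight, the vehicle was 150 µM dextrose, and livers were taken after 8 hours. Each change below is a log2 fold change with its standard error (±), taken from a limma fit over 12 arrays, 3 per group, and p-values are limma's, adjusted over all 14568 genes by the Benjamini-Hochberg method. A gene is said to rise or fall only at an adjusted p under 0.05, and levels are normalized log2 intensities, which can be set side by side between arrays but not between genes.

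The respiratory chain lies in the inner mitochondrial membrane. Complexes I and II pass electrons from NADH and succinate to ubiquinone, complex III passes them to cytochrome c, and complex IV, cytochrome c oxidase, passes them to oxygen. Complexes I, III and IV pump protons as they do so, and complex V, the ATP synthase, makes ATP as protons flow back. A few subunits of each complex except complex II are encoded in mitochondrial DNA, and all the genes described here are nuclear. Hepatocytes are rich in mitochondria, and most of these genes are expressed in every tissue, although several cytochrome oxidase subunits have separate liver and muscle forms.

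All arrays carried liver: the summed intensity of 6 hepatocyte markers lay between 79840 and 82470 with tunicamycin in null livers, 78830 and 81500 in control tunicamycin livers, 79900 and 81290 in null vehicle livers and 79990 and 81740 in control vehicle livers. Null tunicamycin replicate 2 also carried kidney transcripts. On it, 12 of 15 kidney markers lay more than 1 (log2) above every other array, and their summed intensity was 34330, against 550.7 to 1018 on the other 11. Of 10 muscle and 4 brown fat markers, 1 each stood out in the same way. None of the 5 probe sets of Ern1 differed between genotypes (changes of -0.24 to 0.00 with vehicle and -0.37 to 0.10 with tunicamycin, lowest adjusted p = 0.678), and whether they lie in the deleted stretch is unknown, so they do not check the labels. RNA integrity was read from the actin and Gapdh control probe sets. The actin 5' to 3' signal ratio averaged 0.309 ± 0.116 in null and 0.328 ± 0.0533 in control tunicamycin arrays, against 0.50 ± 0.179 in null and 0.757 ± 0.323 in control vehicle arrays (SD, n = 3 each). The Gapdh ratio averaged 0.401 ± 0.0327 in null and 0.556 ± 0.0289 in control tunicamycin arrays, against 0.372 ± 0.241 in null and 0.528 ± 0.22 in control vehicle arrays. With tunicamycin the Gapdh ratio was lower on every null array (0.37 to 0.435) than on every control array (0.523 to 0.577). Summed over the 2 of 4 listed erythroid markers on the array (Alas2 and Hba-a1, the second dim throughout), intensity was 262.8 to 623 in null and 341.2 to 514.6 in control tunicamycin arrays, against 937.7 to 1182 in null and 664.9 to 984.4 in control vehicle arrays, lower on every tunicamycin array, and the part of such cells in the changes below was not tested. For 6 Kupffer cell and macrophage markers the summed intensity was 2549 to 5653 in null and 5293 to 6331 in control tunicamycin arrays. With vehicle it was 3705 to 6454 in null and 5234 to 9059 in control arrays. The part of these cells was not tested either. In bulk tissue, fewer cells of a type and less RNA per cell cannot be told apart.

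In null livers few subunit transcripts passed the test, although most ran downward with tunicamycin. Sdhd, Cox7c, Ndufb3 and Atp5k fell and Cox7a2l rose, 4 falls and 1 rise among 81 genes, where 9.23% of all genes fell and 7.59% rose. The share of members that fell was thus below the background in this fit, and below the 13.1% of the 1310 genes with a mean level of at least 11. The number called depended on the fit. All 5 calls were kept and 8 were new with a pseudocount of 64, 11 with limma's trend and robust options and 7 with array quality weights. With only the 2 groups compared 1 of the 5 was kept. The shares of all genes called under these options are not given here. In the main fit the median change was -0.17, against -0.07 over all genes, and 70 of 81 changes were negative, against 56.8% of all genes. With the values as deposited, in place of quantile normalization, 37 of the 81 were negative, and 63 were with the array medians centred. In 31 genes the null tunicamycin arrays lay wholly below the null vehicle arrays, where 19.4% of all genes and 403 of the 1310 did so. Without null tunicamycin replicate 2, the array with kidney transcripts, the median was -0.20, 75 changes were negative, and 5 genes fell and 0 rose. Without null tunicamycin replicate 3 or null vehicle replicate 1, 1 gene was called.

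In control livers more transcripts fell with tunicamycin, in every complex. Of 81 genes, 28 fell, among them all 4 that fell in null livers, and 0 rose, 34.6% of the members, where 13.3% of all genes fell and 11.6% rose. The falls were moderate: the median change over the 81 genes was -0.32, against -0.11 over all genes, and 74 of the 81 changes were negative, against 59.4% of all genes. Because these transcripts are abundant, the 1310 genes at a mean level of 11 or more are a nearer background, and of those 21.1% fell, with a median of -0.12. In 58 of the 81 genes each tunicamycin array lay below each vehicle array, where 24.5% of all genes and 521 of the 1310 did so. An unadjusted p under 0.05 was found for 49 of the 81, for 5352 of all 14568 genes and for 647 of the 1310. The count rested on single arrays: 9 genes were called without control tunicamycin replicate 2, 12 without control tunicamycin replicate 1 or control vehicle replicate 1, and 13 without control vehicle replicate 3. Of the 81 changes, 66 were negative with the array medians centred and 60 as deposited.

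**Figure D1:**
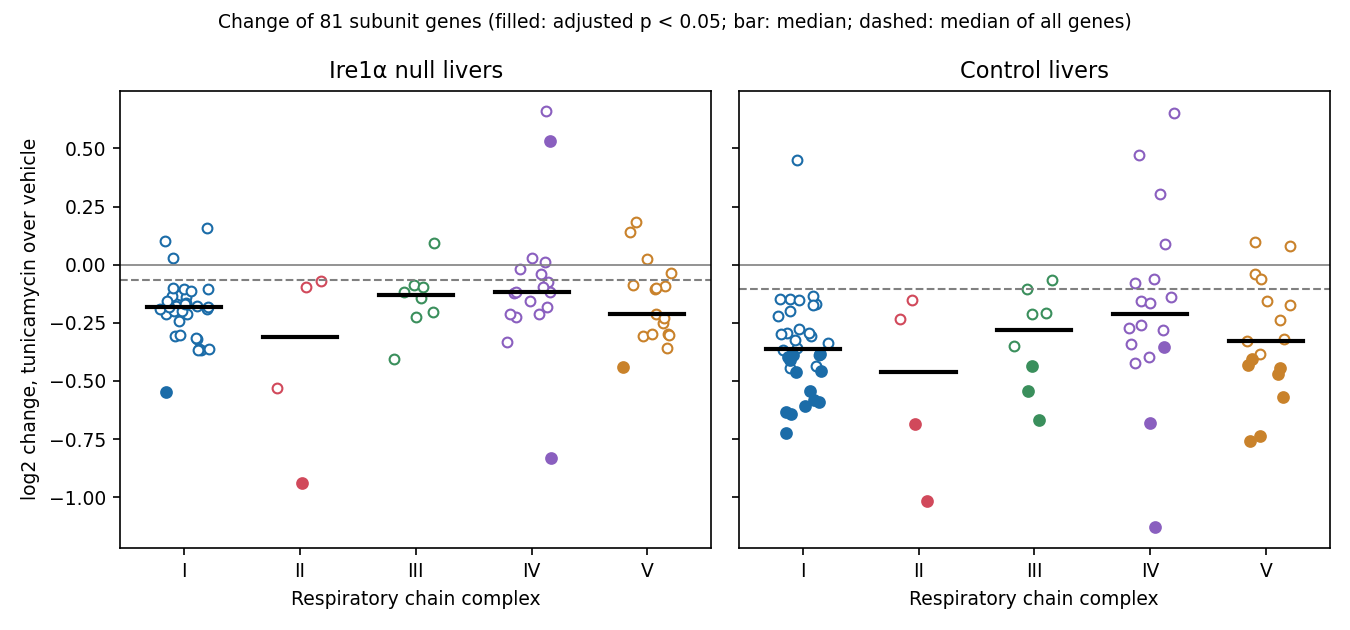
Log2 change with tunicamycin over vehicle (vertical axis) of the 81 subunit genes by complex, in null livers (left) and control livers (right). Filled points passed an adjusted p under 0.05, bars mark the median of a complex and the dashed line the median of all genes. The medians of all 5 complexes lie below that line in both panels, and 28 points are filled in control livers against 5 in null livers.

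The downward shift was seen on each control tunicamycin array. Measured from the mean of the control vehicle arrays, the median difference over the 81 genes was -0.22, -0.08 and -0.19 on null tunicamycin replicates 1, 2 and 3, and -0.35, -0.36 and -0.24 on the control tunicamycin replicates. Null vehicle arrays lay at 0.03, 0.00 and 0.02. The null array nearest to vehicle was replicate 2, which carried the kidney transcripts, and the part these play in its subunit levels was not tested. Counted by gene, 73, 53 and 65 of the 81 lay below the control vehicle mean on the null tunicamycin arrays. On the control tunicamycin arrays 75, 75 and 69 did so. Of all 14568 genes, 8227, 7829 and 8700 lay below it on the null and 8508, 8439 and 8144 on the control tunicamycin arrays. Over all genes the median difference was -0.07, -0.04 and -0.12 on the null and -0.11, -0.10 and -0.07 on the control tunicamycin arrays.

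**Figure D2:**
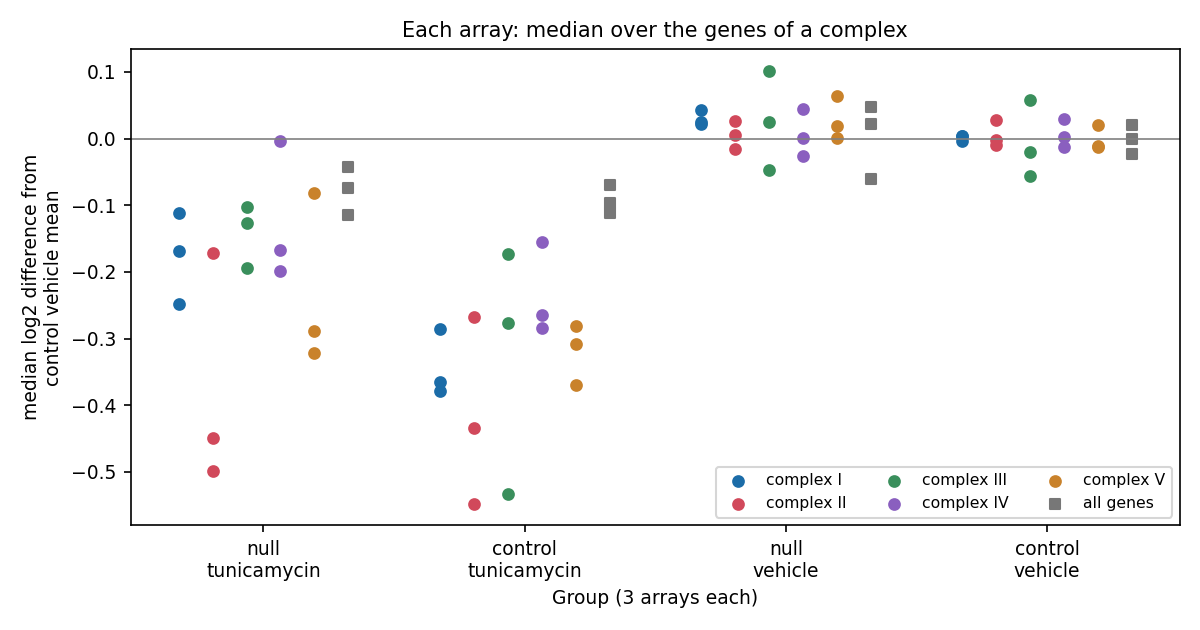
Median log2 difference of each array from the control vehicle mean (vertical axis), over the genes of each complex (circles) and over all genes tested (squares), for the 4 groups of 3 arrays. For every complex the 3 control tunicamycin arrays lie below 0, between -0.55 and -0.16, and null tunicamycin replicate 2 is the array of its group nearest to 0.

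The size of these changes depended on how the arrays were scaled. In null livers, centring the array medians in place of quantile normalization gave a subunit median of -0.06, against 0.01 for all genes. The values as deposited gave 0.01, against 0.08 for all genes, so the sign of the null median turned with them. There 1 gene rose and 2 fell with centring, and 2 rose and 1 fell as deposited, in place of 1 and 4. In control livers centring gave a subunit median of -0.17, against -0.01 for all genes, and the values as deposited gave -0.14, against 0.01 for all genes. Calls then numbered 2 rises and 8 falls with centring and 2 rises and 6 falls as deposited, in place of 0 and 28. The control median stayed 0.15 below that of all genes under both. The counts of calls in this paragraph cover subunit genes only. They do not show whether calls were lost more often among these than among all genes. The actin ratio, lower on all 3 control tunicamycin arrays (0.295 to 0.389) than on the control vehicle arrays (0.454 to 1.10), moved with the treatment: with that ratio in the fit, 1 gene fell in null livers and 5 fell in control livers, where the median was -0.27. With the Gapdh ratio in its place, 27 fell in control livers.

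**Figure D3:**
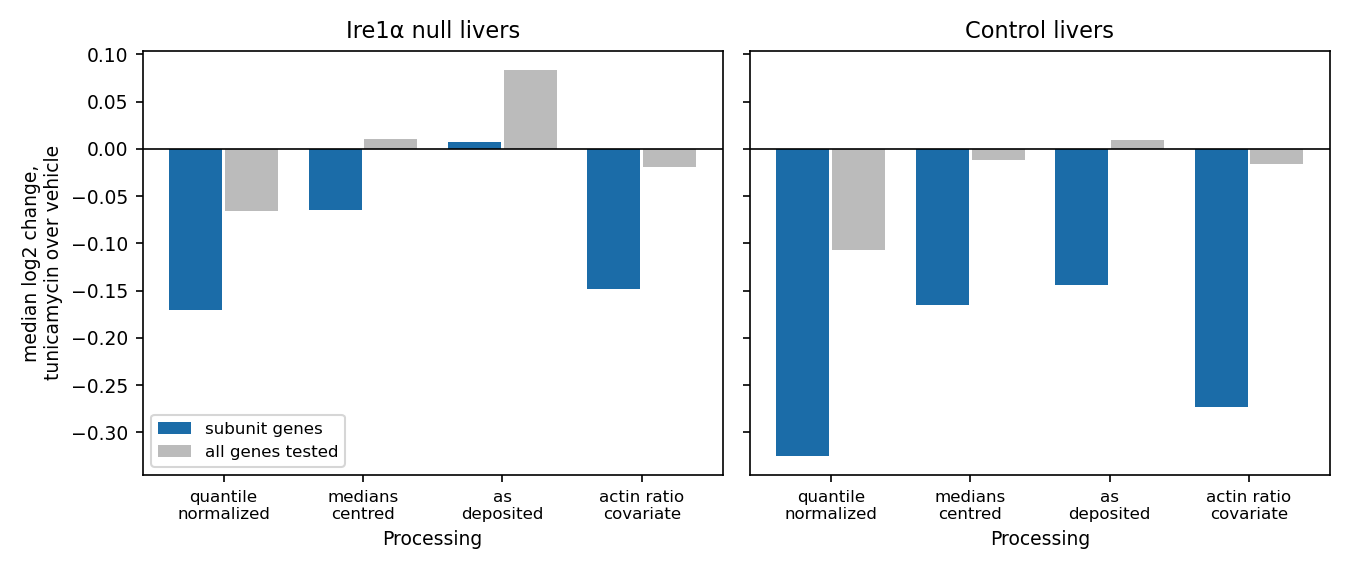
Median log2 change with tunicamycin (vertical axis) of the subunit genes and of all genes tested, in null livers (left) and control livers (right), under 4 ways of processing. The subunit bar is lower than the bar of all genes in each of the 8 pairs, and in null livers it crosses 0 with the values as deposited.

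Complex I, NADH dehydrogenase, is the largest of the complexes, and 1 of its 34 genes fell in null livers, with a median of -0.18. In control livers 13 of the 34 fell, with a median of -0.36. Control changes ran between -0.72 and 0.45, and 33 of 34 were negative. Those that fell include subunits of each part of the enzyme. Ndufs1 is the largest iron-sulphur subunit of its electron-transferring arm, Ndufa5 lies in that arm, Ndufa9 at its junction with the membrane arm, and Ndufb3, Ndufb5, Ndufb8 and Ndufb10 in the membrane arm.

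Ndufa5 stood at 11.50, 11.46 and 11.60 in null livers with tunicamycin, against 12.05, 11.80 and 11.82 with vehicle, and in control livers at 11.25, 10.98 and 11.09 with tunicamycin, against 11.73, 11.99 and 11.77 with vehicle. The tunicamycin and vehicle arrays did not overlap in either genotype. The change was -0.37 ± 0.14 in null livers (adjusted p = 0.0905) and -0.72 ± 0.14 in control livers (adjusted p = 0.0022). A second Ndufa5 probe set gave -0.62 in null (adjusted p = 0.0261) and -0.91 in control livers (adjusted p = 0.0016) in a fit of every probe set.

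Ndufa9 read 11.41, 11.57 and 11.39 with tunicamycin in null livers, against 11.71, 11.83 and 11.78 with vehicle. Control livers held 11.06, 11.13 and 11.27 with tunicamycin, against 11.83, 11.68 and 11.85 with vehicle. Again no tunicamycin array reached a vehicle array of its genotype. The changes were -0.32 ± 0.12 in null (adjusted p = 0.104) and -0.64 ± 0.12 in control livers (adjusted p = 0.00268). Ndufa5 and Ndufa9, with Sdhd and Atp5k below, were the 4 genes that fell in control livers under all 26 alternative fits.

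Ndufb10 changed by -0.64 in control livers (adjusted p = 0.00218), Ndufs1 by -0.61 (0.0106), Ndufc1 by -0.59 (0.0102) and Ndufb3 by -0.54 (0.0119). The last of these, an accessory subunit of the membrane arm, was the one complex I gene that fell in null livers too. Its null arrays read 11.36, 11.48 and 11.39 with tunicamycin, against 11.99, 11.80 and 12.08 with vehicle. Ndufb3 changed by -0.55 ± 0.14 in null (adjusted p = 0.0174) and -0.54 ± 0.14 in control livers, and the null call was lost without null tunicamycin replicate 1 or 3 and without null vehicle replicate 1 or 3. Ndufv1, which holds the NADH-binding site, did not pass in either genotype, at 0.10 ± 0.15 in null and -0.20 ± 0.15 in control livers. Ndufb8 changed by -0.10 ± 0.12 in null (adjusted p = 0.636) and -0.46 ± 0.12 in control livers (adjusted p = 0.0176), with an interaction of 0.36 ± 0.18 (adjusted p = 0.648). The only positive complex I change in control livers was that of Ndufb4, 0.45 ± 0.16 (adjusted p = 0.0518), read from a dim probe set at levels of 4.77 to 5.48, since the other Ndufb4 probe sets carry several symbols. Ndufa12 depended on the probe set: in control livers its 3 bright ones changed by -0.39, -0.44 and -0.47, and a dim one by 1.14.

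Complex II, succinate dehydrogenase, differed between its catalytic and anchor subunits in which genes passed. It has 4 subunits, of which Sdha and Sdhb form the catalytic part that faces the matrix, and Sdhc and Sdhd anchor it in the membrane and hold its haem and ubiquinone site. Both anchors fell in control livers and neither catalytic subunit passed the test. Sdhd lay at 11.07, 10.84 and 11.005 in null tunicamycin livers, 10.93, 10.68 and 10.75 in control tunicamycin livers, 12.06, 11.77 and 11.90 in null vehicle livers and 11.85, 11.89 and 11.67 in control vehicle livers. The 6 tunicamycin arrays thus lay wholly below the 6 vehicle arrays. The change was -0.94 ± 0.14 in null (adjusted p = 0.000784) and -1.02 ± 0.14 in control livers (adjusted p = 0.000219). Its other probe set gave -0.56 ± 0.28 in null and -1.06 ± 0.28 in control livers, and the null call was lost where probe sets of the _x_at and _s_at kinds, which can match several transcripts, were left out.

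Sdhc read 10.51, 10.79 and 10.31 with tunicamycin in null livers, against 10.95, 11.21 and 11.02 with vehicle, and 10.08, 10.63 and 10.86 in control livers, against 11.20, 10.93 and 11.50 with vehicle. The spread within the control groups was wide but the groups did not overlap. Sdhc changed by -0.53 ± 0.22 in null (adjusted p = 0.123) and -0.69 ± 0.22 in control livers (adjusted p = 0.0372). Its control call was lost in 9 of the 26 alternatives, among them centred array medians (-0.48, adjusted p = 0.134), the values as deposited and the actin ratio as a covariate. The catalytic subunits did not pass: Sdha changed by -0.09 ± 0.12 in null and -0.23 ± 0.12 in control livers, and Sdhb by -0.07 ± 0.13 in null and -0.15 ± 0.13 in control livers (adjusted p at least 0.193). Another bright Sdha probe set gave 0.00 ± 0.19 in null and -0.42 ± 0.19 in control livers (adjusted p = 0.191 in a fit of every probe set). The difference between the anchors and the catalytic subunits was not itself tested. The window around the Sdhd start, shown because this gene had the smallest adjusted p of all subunits in both genotypes, holds a match to the ETS motif CCGGAAG on its reverse strand, in capitals (chr9:50603800-50604099, minus strand, RefSeq annotation of GRCm38.p6, 250 bases before and 50 after the start).
Sdhd: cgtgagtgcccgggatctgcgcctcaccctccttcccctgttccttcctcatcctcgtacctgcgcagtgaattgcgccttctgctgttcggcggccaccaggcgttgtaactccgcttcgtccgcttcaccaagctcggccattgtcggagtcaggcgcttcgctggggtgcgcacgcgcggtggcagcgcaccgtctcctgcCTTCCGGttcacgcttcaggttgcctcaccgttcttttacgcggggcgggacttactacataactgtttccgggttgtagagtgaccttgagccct

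**Figure D4:**
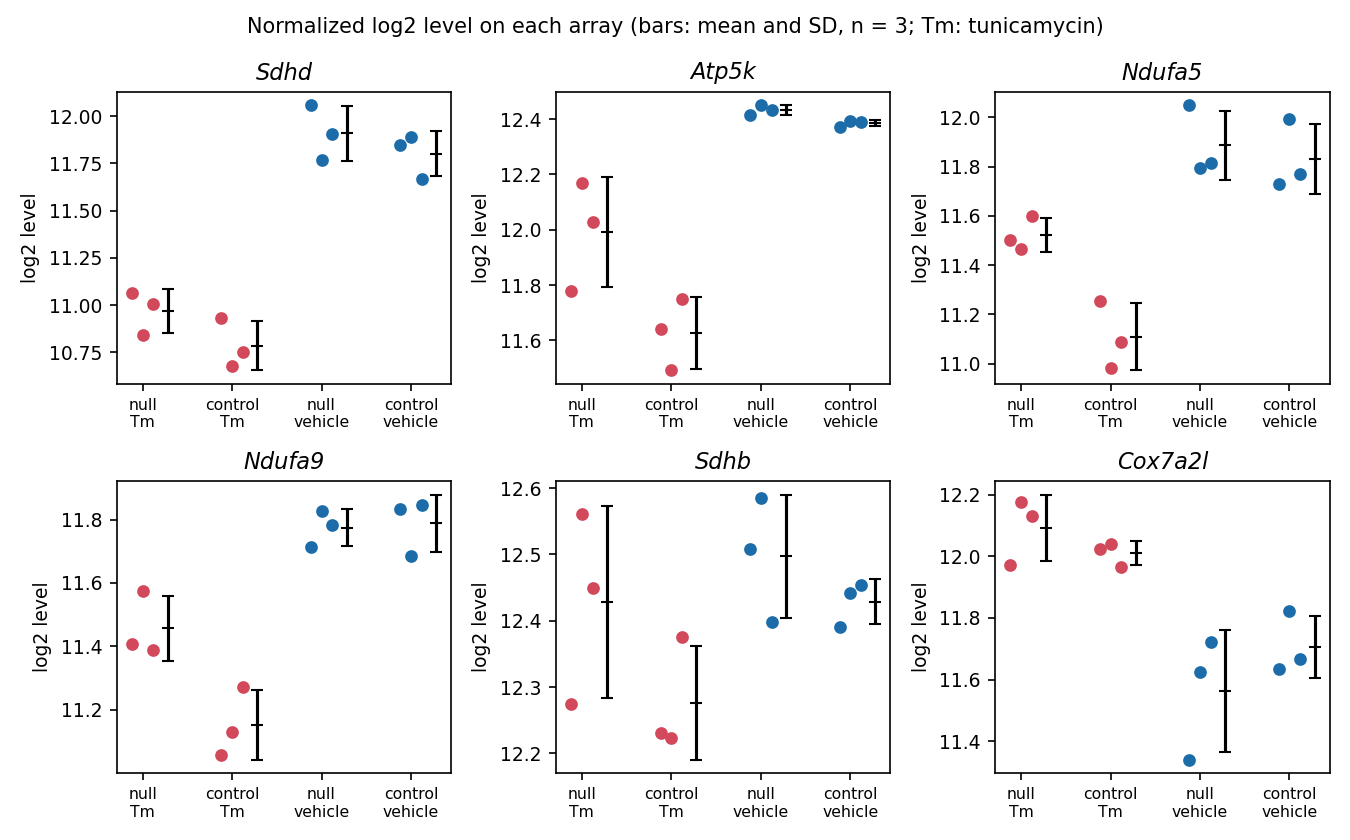
Normalized log2 level (vertical axis) of 6 subunit genes on each of the 12 arrays, in the order null tunicamycin, control tunicamycin, null vehicle and control vehicle, with group mean and SD (n = 3). The tunicamycin arrays of Sdhd, Atp5k, Ndufa5 and Ndufa9 lie below the vehicle arrays of the same genotype, those of Cox7a2l lie above, and those of Sdhb overlap with vehicle in null livers.

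Complex III, the cytochrome bc1 complex, had 0 genes of 8 that fell in null livers and 3 in control livers, with medians of -0.13 in null and -0.28 in control livers. The 3 were small accessory subunits. Uqcr11 read 11.67, 11.79 and 11.81 in null livers with tunicamycin, against 12.09, 12.23 and 12.16 with vehicle, and 11.27, 11.46 and 11.68 in control livers, against 12.10, 12.08 and 12.24 with vehicle. The groups did not overlap in either genotype, and Uqcr11 changed by -0.40 ± 0.14 in null (adjusted p = 0.0622) and -0.67 ± 0.14 in control livers (adjusted p = 0.00344). Uqcrh, the hinge protein that bears on cytochrome c1, changed by -0.20 in null and -0.54 in control livers (adjusted p = 0.0199), and Uqcr10 by -0.09 in null and -0.43 in control livers (adjusted p = 0.0378). The large core proteins Uqcrc1 and Uqcrc2 and the Rieske iron-sulphur protein Uqcrfs1 did not pass: in control livers they changed by -0.21 ± 0.21, -0.10 ± 0.12 and -0.21 ± 0.11. Uqcrb, whose brightest probe set gave -0.07 in control livers, has another that gave -0.44 (adjusted p = 0.0432 in a fit of every probe set).

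Complex IV, cytochrome c oxidase, had 1 fall and 1 rise among 18 genes in null livers, with a median of -0.12. In control livers it had 3 falls, 16.7% of its genes, and a median of -0.21. The other complexes had falls in 37.5% to 50% of their genes there, the highest being 2 of 4 in complex II. Of all genes 13.3% fell in control livers, and of the 1310 genes with a mean level of at least 11, 21.1%. The complexes were not matched for level. Cox4i2, Cox6a2, Cox6b2, Cox7a1, Cox7c, Cox8b, Cox8c and Ndufa4l2 had mean levels of 5.61 to 9.04. Cox7a1 and Cox7c are among the 3 falls in control livers. The 18 include Ndufa4, now counted as a subunit of this complex despite its name, and its relative Ndufa4l2. Several bright genes of this complex did not pass. In null livers Cox4i1, the largest nuclear subunit, changed by 0.03 ± 0.12, Cox5a by -0.12, Cox5b by -0.07, Cox6c by -0.12 and Cox8a by -0.16. In control livers Cox4i1 changed by -0.08 ± 0.12, Cox5a by -0.26, Cox5b by -0.15, Cox6c by -0.28 and Cox8a by -0.27. Cox6a1, the form of its subunit found outside muscle, read 13.24 to 13.41 on all 12 arrays. Cox6b1, which lies on the side of the membrane where cytochrome c docks, fell in control livers, with a change of -0.35 ± 0.11 (adjusted p = 0.0386), with -0.23 in null livers (adjusted p = 0.206).

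Cox7c, a small membrane subunit, was the complex IV gene that fell in both genotypes. It read 7.16, 6.72 and 6.59 in null livers with tunicamycin, against 7.95, 7.36 and 7.65 with vehicle, and 6.92, 6.77 and 7.02 in control livers, against 7.43, 7.86 and 7.46 with vehicle. No tunicamycin array overlapped with vehicle, and the changes were -0.83 ± 0.20 in null (adjusted p = 0.0141) and -0.68 ± 0.20 in control livers (adjusted p = 0.026). Both Cox7c probe sets with a single symbol are dim, with mean levels of 7.24 and 5.52, and the second gave -0.42 in null (adjusted p = 0.213) and -0.25 in control livers (adjusted p = 0.45) once the first, an _s_at probe set, was left out, so that both calls were lost. With centred array medians the null call held and the control call was lost (adjusted p = 0.0404 in null and 0.0598 in control livers).

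Cox7a2l was the only subunit gene that rose under the normalization and choice of probe sets used here. Its product, also called SCAF1, can tie complex III to complex IV in respiratory supercomplexes. Whether the form of this protein in C57Bl/6J mice does so was not examined here. In null livers Cox7a2l read 11.97, 12.18 and 12.13 with tunicamycin, against 11.34, 11.63 and 11.72 with vehicle. In control livers it read 12.02, 12.04 and 11.97, against 11.63, 11.82 and 11.67 with vehicle. All 6 tunicamycin arrays exceeded all 6 vehicle arrays. The change was 0.53 ± 0.14 in null (adjusted p = 0.0197) and 0.30 ± 0.14 in control livers (adjusted p = 0.128), and its 3 probe sets gave 0.46 to 0.53 in null and 0.26 to 0.30 in control livers. With the array medians centred it passed in both, at 0.66 in null (adjusted p = 0.0113) and 0.49 in control livers (adjusted p = 0.0338). Without null tunicamycin replicate 2 the null value was 0.49 and its adjusted p = 0.0541. Its window, printed because it went against the other subunits, held none of the motifs searched (chr17:83514284-83514583, minus strand, GRCm38.p6).
Cox7a2l: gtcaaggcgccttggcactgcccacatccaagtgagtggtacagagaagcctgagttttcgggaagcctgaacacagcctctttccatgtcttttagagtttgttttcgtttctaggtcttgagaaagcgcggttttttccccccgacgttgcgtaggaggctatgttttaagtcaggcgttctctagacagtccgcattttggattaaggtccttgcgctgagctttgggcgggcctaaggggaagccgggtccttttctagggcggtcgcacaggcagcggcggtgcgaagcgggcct

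Several complex IV subunits have a muscle or testis form encoded by a separate gene. Cox7a1, the heart and muscle form, read 6.65, 8.20 and 6.53 in null tunicamycin livers, 6.01, 6.35 and 6.19 in control tunicamycin livers, 7.47, 7.17 and 7.36 in null vehicle livers and 7.84, 6.98 and 7.12 in control vehicle livers. The high null value was that of replicate 2, which carried the kidney transcripts. Of the 10 muscle markers, 1 (Pvalb) stood out on that array, at 7.94 against 5.16 to 6.54 on the other 11. Ckm read 5.28 there, against 5.19 to 5.92, and Mylpf 5.29, against 5.47 to 6.34, so neither was raised. The remaining 7 were below the filter on low levels. The summed intensity of the 10 there, with Pvalb in it, was 337.4, against 146.4 to 250.4 on the other 11 arrays. Whether the Pvalb signal there came from muscle was not tested. Of the 4 brown fat markers, 1 (Fabp4) stood out on that array, at 10.33 against 8.21 to 9.23 on the other 11. The remaining 3 brown fat markers were below the filter. The summed intensity of the 4, with Fabp4 in it, was 1374 there, against 305.6 to 690 on the other 11 arrays. The part of muscle, brown fat or kidney transcripts in the Cox7a1 value was not tested. Cox7a1 changed by -0.21 ± 0.37 in null livers with that array (adjusted p = 0.753) and by -0.75 without it (adjusted p = 0.0517), and by -1.13 ± 0.37 in control livers (adjusted p = 0.0437). Cox6a2, the muscle form of subunit VIa, read 6.78, 7.32 and 7.02 in null livers with tunicamycin, against 6.43, 6.55 and 6.15 with vehicle, and 6.66, 6.72 and 6.83 in control livers, against 5.46, 6.41 and 6.39 with vehicle. The groups did not overlap, with changes of 0.66 ± 0.24 in null (adjusted p = 0.0864) and 0.65 ± 0.24 in control livers (adjusted p = 0.0707). Its other probe set, at a mean level of 4.87 and below the filter, differed from this in a fit of every probe set. It changed by 0.42 in null (adjusted p = 0.343) and 2.00 in control livers (adjusted p = 0.000141). With tunicamycin its null minus control difference was -1.68 (adjusted p = 0.00292). In control livers Cox6a2 passed once the array medians were centred, at 0.72 (adjusted p = 0.0405), and it was the second of the 2 rises counted there, beside Cox7a2l. The other isoforms, Cox4i2, Cox6b2, Cox8b, Cox8c and Ndufa4l2, had changes between -0.33 and 0.01 in null and between -0.42 and 0.47 in control livers, and none passed. Cox7b2, left out for its low level, changed by 0.00 in null and 0.36 in control livers in a fit without that filter.

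Complex V had 1 fall among 17 genes in null livers and 7 in control livers, with medians of -0.21 in null and -0.33 in control livers. Atp5k, subunit e of the membrane part, which helps the enzyme pair into dimers, had the smallest adjusted p of this complex in both genotypes. It read 11.78, 12.17 and 12.03 in null livers with tunicamycin, against 12.42, 12.45 and 12.43 with vehicle, and 11.64, 11.49 and 11.75 in control livers, against 12.37, 12.39 and 12.39 with vehicle. The 6 vehicle arrays lay between 12.37 and 12.45, and all 6 tunicamycin arrays lay below them. The change was -0.44 ± 0.13 in null (adjusted p = 0.0414) and -0.76 ± 0.13 in control livers (adjusted p = 0.00136). The null call was close to the threshold and did not hold under 18 of the 26 alternatives. In a fit of every probe set, the chosen Atp5k probe set had an adjusted p of 0.0712 in null livers. Its further probe sets gave -0.48 (adjusted p = 0.0511) and -0.73 (adjusted p = 0.00762) there. The Atp5k window is shown for its motifs: in capitals are 2 overlapping NRF1 matches and, on the reverse strand, an ETS match and a CCACG match (chr5:108434350-108434649, minus strand, GRCm38.p6). CCACG is the core of unfolded protein response elements, but it was in 35.5% of all genes with a window. These letters alone do not show such an element.
Atp5k: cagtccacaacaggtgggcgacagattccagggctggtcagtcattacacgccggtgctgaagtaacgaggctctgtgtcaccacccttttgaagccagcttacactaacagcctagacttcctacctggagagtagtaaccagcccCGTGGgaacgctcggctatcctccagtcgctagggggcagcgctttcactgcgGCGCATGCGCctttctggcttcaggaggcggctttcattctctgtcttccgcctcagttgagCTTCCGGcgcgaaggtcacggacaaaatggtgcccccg

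Atp5o, the protein of the peripheral stalk that confers oligomycin sensitivity, read 11.31, 11.74 and 11.38 in null livers with tunicamycin, against 11.66, 11.96 and 11.88 with vehicle, and 10.999, 10.98 and 11.26 in control livers, against 11.83, 11.80 and 11.82 with vehicle. The null groups overlapped and the control groups did not. The changes were -0.36 ± 0.15 in null (adjusted p = 0.135) and -0.74 ± 0.15 in control livers (adjusted p = 0.00376). A second Atp5o probe set passed in both genotypes in a fit of every probe set. It changed by -0.61 in null (adjusted p = 0.0362) and -0.81 in control livers (adjusted p = 0.00491). Of the catalytic head, the gamma subunit Atp5c1 fell in control livers, with a change of -0.45 ± 0.13 (adjusted p = 0.0303), with -0.09 ± 0.13 in null livers. The alpha and beta subunits did not pass: Atp5a1 changed by -0.09 in null and -0.24 in control livers, and Atp5b by 0.18 in null and -0.04 in control livers. Nor did any of Atp5g1, Atp5g2 and Atp5g3, which encode the same proton-carrying c subunit, with changes of -0.04, 0.14 and 0.02 in null and 0.08, -0.06 and 0.10 in control livers. The other 4 falls in control livers were the small subunits Atp5j2 (-0.47), Atp5e (-0.43), Atp5md (-0.41) and Atp5mpl (-0.57).

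Between genotypes no subunit gene passed when read from its brightest probe set. With vehicle, null minus control livers gave a median of 0.02 over the 81 genes and 0 calls, where 0% of all genes were called. None of the 81 had an unadjusted p under 0.05, where 597 of all 14568 genes did. With tunicamycin the null arrays were on average a little higher. The median difference was 0.14, against 0.02 over all genes and 0.05 over the 1310 genes with a mean level of at least 11. Of the 81 differences 13 were negative, against 47.2% of all genes and 38.8% of the 1310. Among the 81, 0 were called, where 3.99% of all genes were. An unadjusted p under 0.05 was found for 15 of the 81, for 2273 of all 14568 genes and for 248 of the 1310. The share of members was thus near that of the 1310. Ndufb8 came closest, at 11.85, 12.01 and 11.96 in null against 11.43, 11.48 and 11.67 in control tunicamycin livers, a difference of 0.41 ± 0.12 (adjusted p = 0.102). In 24 genes the null tunicamycin arrays lay wholly above the control tunicamycin arrays, where 10.2% of all genes and 208 of the 1310 did so.

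The interaction, the null response minus the control response, measured directly whether the response differed. Its median over the subunits was 0.14, against 0.03 over all genes and 0.05 over the 1310 genes with a mean level of at least 11. Of the 81 values 14 were negative, against 45.7% of all genes and 40.5% of the 1310. No member was called, where 0.837% of all genes were. An unadjusted p under 0.05 was found for 1 member, the dim Ndufb4 (-0.69 ± 0.22, adjusted p = 0.272), and for 1203 of all 14568 genes. A difference in response was thus not resolved for any single gene with 3 arrays per group. By complex the interaction medians were 0.18, 0.11, 0.19, 0.10 and 0.17 for I to V. Without null tunicamycin replicate 2 the median was 0.10 for the interaction and 0.08 for the difference between genotypes with tunicamycin, and with the array medians centred these were 0.09 and 0.04.

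**Figure D5:**
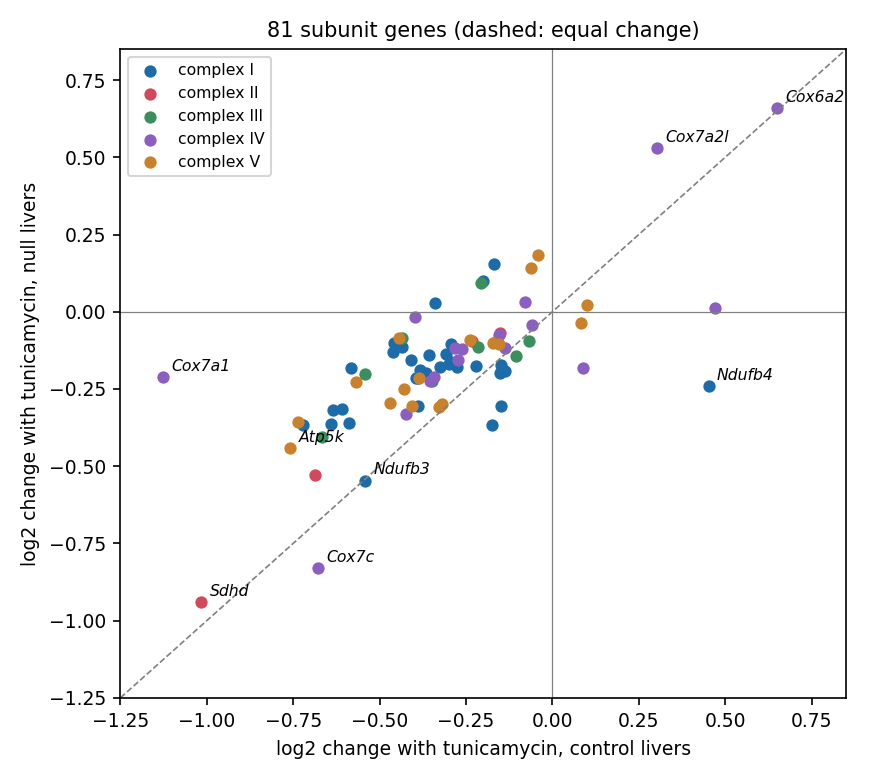
Log2 change with tunicamycin in null livers (vertical axis) against control livers (horizontal axis) for the 81 subunit genes, coloured by complex; the dashed line marks equal change. Most points lie below 0 on both axes and above the dashed line, Sdhd and Ndufb3 lie near the line, Cox7a2l and Cox6a2 are above 0 on both axes, and Cox7a1 and Ndufb4 lie far from the line.

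Where a gene had several probe sets, they mostly went the same way. For the 47 genes with more than 1 tested probe set, 66 of 79 further probe sets shared the sign of the chosen one in null livers and 71 in control livers. Whether a fall passed in null livers could depend on the probe set, as for Ndufa5 and Atp5o. The size of a change could differ too, in either direction. In control livers the chosen Atp5pb probe set gave -0.17 and the other -0.42, and the chosen Ndufb5 probe set gave -0.58 and the other -0.45. Over all 160 probe sets that passed the filter the median was -0.18 in null and -0.36 in control livers, with 136 negative in null and 143 in control livers.

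The promoters of the subunit genes were examined because NRF1 and the ETS factor GABP are known regulators of respiratory chain genes. RefSeq windows of 300 bases, 250 before and 50 after the start, were available for 67 of the 82 genes. The NRF1 core GCATGCGC occurred on either strand in 9 of the 67 genes, 13.4%, against 3.05% of 27025 genes, and the ETS motif CCGGAAG in 25.4% against 9.93%. Other motifs were about as frequent as elsewhere: CCAAT in 41.8% against 41.1% and CCACG, the core of unfolded protein response elements, in 38.8% against 35.5%. TGATGCAA, the motif used for ATF4, was in 0 of 67 windows, against 1.03% of all genes. Genes that fell in control livers held NRF1 in 12% and ETS in 28% of windows, and genes not called there held NRF1 in 14.3% and ETS in 23.8%. These matches describe the letters only. The 9 NRF1 matches, shown because NRF1 had the highest ratio of its share in members to that in all genes among the motifs searched (the ETS motif was in more members, 17), are listed with flanks, motif letters in capitals (overlapping matches make a longer run) and GRCm38.p6 positions.
Atp5g2, chr15:102671068-102671101, minus strand: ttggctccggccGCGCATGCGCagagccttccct
Atp5k, chr5:108434428-108434461, minus strand: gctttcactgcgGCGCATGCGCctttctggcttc
Atp5l, chr9:44920963-44920992, minus strand: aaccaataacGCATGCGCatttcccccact
Cox6a1, chr5:115349099-115349132, minus strand: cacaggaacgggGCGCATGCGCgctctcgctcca
Ndufa6, chr15:82354355-82354386, minus strand: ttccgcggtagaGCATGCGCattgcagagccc
Ndufa8, chr2:36049327-36049358, minus strand: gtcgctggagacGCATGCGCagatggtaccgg
Sdhb, chr4:140961205-140961236, plus strand: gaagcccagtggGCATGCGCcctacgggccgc
Uqcr11, chr10:80406806-80406837, minus strand: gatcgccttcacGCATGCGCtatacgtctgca
Uqcrc1, chr9:108936666-108936697, plus strand: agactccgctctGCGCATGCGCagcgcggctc
Of these 9 genes, Atp5k, Ndufa6 and Uqcr11 fell in control livers, with changes of -0.76, -0.46 and -0.67. The other 6 did not pass: Atp5l changed by -0.39, Sdhb by -0.15, Ndufa8 by -0.14, Uqcrc1 by -0.21 and Cox6a1 and Atp5g2 by -0.06 each.

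Among genes that build and serve the chain, assembly factors included some of the larger falls. Of 18 measured complex IV assembly genes, 4 fell and 1 rose in each genotype, with medians of -0.19 in null and -0.33 in control livers. For these lists too, the shares over all genes were 9.23% falls and 7.59% rises in null livers and 13.3% falls and 11.6% rises in control livers. With the array medians centred, 3 of the 18 fell and 1 rose in each genotype, with medians of -0.02 in null and -0.12 in control livers. Coa6, which delivers copper to complex IV, read 9.81, 9.98 and 9.81 in null livers with tunicamycin, against 11.39, 10.99 and 11.45 with vehicle, and 9.56, 9.11 and 9.33 in control livers, against 10.67, 11.45 and 11.05 with vehicle, changes of -1.41 ± 0.21 in null (adjusted p = 0.000794) and -1.73 ± 0.21 in control livers (adjusted p = 9.07e-05). Pet100 changed by -1.13 in both genotypes, and Cox20, a chaperone of subunit II, by -0.86 in null and -1.13 in control livers. Fastkd3 rose, by 0.51 in null and 0.83 in control livers. Of 4 complex II assembly genes, Sdhaf4, which protects the flavinated Sdha before assembly, fell by 1.09 in null (adjusted p = 0.000187) and by 1.19 in control livers (adjusted p = 4.65e-05), and the others did not pass, although 1 rose in control livers with centring.

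Of 16 complex I assembly genes, 3 fell and 0 rose in each genotype, with medians of -0.27 in null and -0.30 in control livers. Centred, 1 fell and 1 rose in null livers and 2 fell in control livers, with medians of -0.12 in null and -0.16 in control livers. Acad9 changed by -0.86 in null and -0.97 in control livers, Ndufaf6 by -0.78 in null and -0.85 in control livers, and Ndufaf1 by -0.73 in null and -0.67 in control livers. Foxred1 was lower in null than in control livers with tunicamycin, at 8.01, 8.35 and 8.16 against 8.60, 8.93 and 8.96 (difference -0.65 ± 0.15, adjusted p = 0.0331). Of 7 complex III partners and assembly factors, 2 fell in each genotype, Uqcc1 and Uqcc3 (medians of -0.39 in null and -0.21 in control livers), and Ttc19 rose in control livers (0.57). With the array medians centred both falls were lost in each genotype, and 1 gene rose in control livers. Of 4 ATP synthase assembly genes, 0 were called in either genotype. The one with the smallest p was Atpaf1 in null livers (-0.63, adjusted p = 0.0747) and Atpif1, the inhibitor protein, in control livers (-0.99, adjusted p = 0.0596). Among 4 measured supercomplex factors, Higd2a fell in control livers (-0.54, adjusted p = 0.00851), with -0.37 in null livers, but centring gave 0 falls and 1 rise in control livers.

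Of 14 electron carrier genes, 3 fell and 0 rose in each genotype, with medians of -0.18 in null and -0.28 in control livers. Those that fell belong to ubiquinone synthesis: Coq8a fell by 0.61 in null and by 0.998 in control livers and Pdss2 by 0.79 in null and by 0.81 in control livers, with Coq3 in null livers (-0.62) and Coq6 in control livers (-0.66) as the third. Centred, 1 fell in null and 2 in control livers. Of 13 genes of the TCA cycle, which feeds the chain with NADH and succinate, 2 fell and 1 rose in null livers and 4 fell and 1 rose in control livers, with medians of -0.10 in null and -0.22 in control livers. The balance turned with the scaling: centred, 0 fell and 1 rose in null livers (median 0.06), and 1 fell and 2 rose in control livers (median -0.07). Cs, citrate synthase, rose by 0.93 ± 0.20 in null (adjusted p = 0.00798) and 1.10 ± 0.20 in control livers (adjusted p = 0.00165). Dlst, of the 2-oxoglutarate dehydrogenase complex, changed by -0.56 in null and -0.86 in control livers, and Suclg2, Idh3a and Idh3b fell in control livers (-0.58, -0.48 and -0.39). Fh1, fumarase, fell in null livers (-0.40).

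Upstream of the subunits, 10 nuclear regulators and 11 genes for mitochondrial DNA upkeep and transcription were measured. Of the regulators, 0 fell and 1 rose in null livers, and 2 fell and 2 rose in control livers, with medians of -0.05 in null and 0.11 in control livers. Centring moved the null median to 0.11, with 2 rises. Ppargc1a, the coactivator PGC-1α, read 6.98, 8.42 and 6.88 in null livers with tunicamycin, against 8.67, 9.47 and 7.52 with vehicle, and 5.43, 6.25 and 6.13 in control livers, against 8.23, 7.91 and 7.40 with vehicle. It fell in control livers, with a change of -1.91 ± 0.49 (adjusted p = 0.014), and gave -1.12 ± 0.49 in null livers (adjusted p = 0.15), where the array with kidney transcripts held the highest tunicamycin value. Ppara, a nuclear receptor for fatty acids, changed by -0.60 in null (adjusted p = 0.0781) and -0.94 in control livers (adjusted p = 0.007). Pprc1, a relative of PGC-1α, rose in both, by 1.52 in null and 1.11 in control livers, and Gabpb2 rose in control livers (0.46).

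Tfam, which packages mitochondrial DNA and starts its transcription, fell by 0.57 in null (adjusted p = 0.0114) and by 0.96 in control livers (adjusted p = 0.000236), and Twnk, the mitochondrial DNA helicase, rose by 0.61 in null and 0.87 in control livers. The median of the 11 was 0.09 in null and 0.29 in control livers, and the null fall of Tfam was lost with centring. Tfb1m, which methylates mitochondrial ribosomal RNA, separated the genotypes. It read 9.51, 9.21 and 9.68 in null and 10.82, 10.72 and 10.35 in control tunicamycin livers, against 9.29, 8.75 and 9.27 in null and 8.77, 9.17 and 8.85 in control vehicle livers. Its change was 0.36 ± 0.20 in null (adjusted p = 0.259) and 1.70 ± 0.20 in control livers (adjusted p = 8.45e-05), with a difference between genotypes under tunicamycin of -1.16 ± 0.20 (adjusted p = 0.00577) and an interaction of -1.34 ± 0.28 that missed the threshold (adjusted p = 0.0567).

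Of 76 mitochondrial ribosomal protein genes, 9 fell and 4 rose in null livers and 16 fell and 4 rose in control livers, with a median of -0.14 in both. The largest change in this list was that of Mrpl49, at 8.55, 8.76 and 7.89 in null and 7.25, 7.06 and 7.18 in control tunicamycin livers, against 10.13, 9.79 and 10.01 in null and 10.07, 9.86 and 9.85 in control vehicle livers. Mrpl49 changed by -1.58 ± 0.20 in null and -2.77 ± 0.20 in control livers, and was higher in null than control livers with tunicamycin (1.24 ± 0.20, adjusted p = 0.00387). Mrps12 went the other way, lower in null than in control tunicamycin livers (-1.35 ± 0.21, adjusted p = 0.00297). Mrpl34 and Mrpl18 fell in both genotypes by over 1, and Mrps18b rose by 1.27 in null and 1.55 in control livers. With the array medians centred, 4 of the 76 fell and 6 rose in null livers, and 6 fell and 12 rose in control livers, so the balance of this list turned too. Of 9 mitochondrial stress proteins, 0 fell, and 3 rose in null livers and 4 in control livers: the chaperones Hspa9 and Dnaja3 and the protease Lonp1 in both, by 0.72 to 0.81 in null and 0.66 to 0.82 in control livers, and the protease Clpp in control livers (0.52). Without null tunicamycin replicate 2, the null counts of rises and of falls in each of these lists moved by at most 1, except that 10 ribosomal protein genes fell and 2 rose.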

How the data were processed

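Liver RNA from 12 mice was hybridised to 12 Affymetrix arrays, 3 in each of 4 groups given by the labels. Each probe set has one deposited intensity per array, on a linear scale. How the authors summarised and scaled the probes remains unknown from these sources. The labels' protocols state Trizol extraction and biotinylated cRNA prepared by the Affymetrix protocol. The trimmed mean intensity of an array lay between 228 and 303, and the number of arrays limits the precision. Arrays correlated at most at 0.987, so none was a copy of another.

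Of 45101 probe sets, 64 controls were left out. By the platform annotation, which can be old, 34945 had 1 symbol, 932 several and 9160 none. Intensities were transformed to log2(value + 16), where the added 16 understates changes of dim genes, and quantile normalized. The dimmest 30% of probe sets were removed, and the brightest probe set per gene gave 14568 genes. Group means were fitted with limma 3.58.1 (lmFit, eBayes, 8 residual degrees of freedom) in R 4.3.3 and data.table (version 1.17.8), in 5 contrasts. Calls needed an adjusted p (Benjamini-Hochberg) under 0.05. The steps were tested on simulated data. Promoter windows came from RefSeq (GRCm38.p6) and were searched on both strands with Python 3.11.15 and pandas 2.3.3, and figures drawn with matplotlib 3.10.9.

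The members and the 12 pathway lists were chosen with earlier results of these data known. Genes named are anchors and isoforms given whether called or not, the up to 6 called members per complex with the smallest adjusted p, or the 2 with the smallest p, and the up to 4 called members of each list; Cox7a2l, Ndufb4 and Ndufa12 are also singled out after their values were seen. No label says that a replicate number links samples of different groups, so the main fit has no pairing. Deviations of same-numbered arrays correlated between -0.41 and 0.49 over the comparisons. The highest value was that of replicate 3 in control livers, where the highest with another number was -0.165. With 3 arrays per group these values cannot decide whether the numbers pair samples. The alternatives were other pseudocounts, filters, scalings, probe set choices, limma options, a replicate block, covariates of RNA integrity, a fit of the groups compared only, and leaving out each array.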

Additional observations from a re-analysis of the deposited data

How the results depend on the processing

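The counts of calls below cover subunit genes only, so they do not show whether calls moved more among these than among all genes. Both the number of subunit genes called and, in null livers, the direction of many changes depended on the processing. In null livers, 5 were called as reported, against 13 with a pseudocount of 64, 3 centred, 3 as deposited, 8 averaging the probe sets of each gene, 16 with the trend and robust options of eBayes, 12 with array quality weights, 1 with only the groups compared and 1 adjusting for the actin ratio. The median there was -0.065 centred and 0.0077 as deposited, with 63 and 37 of 81 changes negative in place of 70. In control livers, 28 were called as reported, against 10 with centred array medians, 8 as deposited, 45 with trend and robust options and 5 adjusting for the actin ratio. The median there was -0.17 centred and -0.14 as deposited. Between genotypes with tunicamycin, 2 were called with a pseudocount of 64, 2 with trend and robust options and 4 with array quality weights, and the median was 0.038 centred. With vehicle the genotype median was -0.031 as deposited.

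Leaving out each array in turn gave 1 to 5 calls in null livers (1 without null tunicamycin replicate 3 or null vehicle replicate 1, 3 without null tunicamycin replicate 1 or null vehicle replicate 3) and medians of -0.20 to -0.12. In control livers it gave 9 to 30 calls (12 without control tunicamycin replicate 1, 9 without replicate 2, 12 without control vehicle replicate 1 and 13 without replicate 3) and medians of -0.37 to -0.29. Without null tunicamycin replicate 2, 29 fell and 1 rose in control livers. The ranges were 0.08 to 0.17 for genotypes with tunicamycin, -0.0008 to 0.02 with vehicle and 0.10 to 0.19 for the interaction, with 0 calls in each. The causes were not tested, except that fewer arrays leave fewer degrees of freedom. With the replicate number as a block, 4 of the 5 null calls and 19 of the 28 control calls were kept and 0 were new. Of 10414 comparisons of single members with an alternative, 10064 kept their side of the threshold, 448 of them with the sign of an uncalled value changed, 243 lost the call, 106 gained one and 1 turned: Ndufa12 in control livers without _x_at and _s_at probe sets, at 1.14 (adjusted p = 0.0361). Dim probe sets limit what Cox7a1, Cox6a2, Cox7c and Ndufb4 can show.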
